A study of Drosophila melanogaster with 4 samples.

Results

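The clock genes period (per), timeless (tim) and Clock (Clk) were examined for LSD1 enrichment in chromatin of adult fly heads. The members are the enriched regions that touch 1 of 3 windows in release 5 of the fly genome. Regions were taken by position and not by score, though the windows and genes were chosen with earlier results of these data known. The windows were X:2574000-2592000 for per, 2L:3488000-3513000 for tim and 3L:7758000-7781000 for Clk. Summed over the 3 lists, 16 of the 29042 listed regions touched a window, and the same site can count in more than 1 list. ChIP replicate 1 held 6 of its 8115 regions there, ChIP replicate 2 held 6 of 9911, and the combined list held 4 of 11016. LSD1 ChIP (2 samples) and its input (2 samples) both came from heads of mixed adult flies of Oregon-R, the wild-type strain, which were raised in population cages and sieved. No mutant, treatment or second tissue was included, and the sources used here name no time of day, light regime or sex. Region lists hold no expression, so the tissue label could not be checked against marker genes.

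CLOCK is a basic helix-loop-helix activator that pairs with CYCLE, binds E-box sequences and drives per and tim. PERIOD and TIMELESS proteins accumulate, enter the nucleus and block CLOCK, which closes the daily loop, and light resets it because TIMELESS is degraded through cryptochrome. LSD1 removes methyl groups from lysine 4 of histone H3, a mark of active promoters and enhancers, and works with the CoREST corepressor. In the fly head the clock runs in pacemaker neurons, photoreceptors and glia. In chromatin pooled from whole heads, low enrichment in many cells and high enrichment in few cells cannot be told apart.

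Each region carries the authors' score, on a log2 scale by its values, for ChIP over input. Every list has its own constant, so scores were ranked within a list and never subtracted between lists. A percentile below is the share of regions or windows of the same arm that lie lower, with ties counted in equal parts to each side. The 3 windows were set against windows of the same size cut end to end along the same arm: 1243 of 18.0 kb on X, 918 of 25 kb on 2L and 1065 of 23.0 kb on 3L. These ranks describe position and carry no p. In those of the highest score in a window, windows without a region counted as lower.

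The windows come from the rule that chose the members. A gene table of release 6 was at hand for names and neighbours alone. Its bounds for tim and Clk fall inside the windows as written and those for per do not, and whether tim and Clk keep the same coordinates in release 5 was not tested. Regions are therefore given by their place in the window, and no promoter, exon or gene end is assigned. Of 9 other core clock genes (cyc, vri, Pdp1, cwo, cry, dbt, sgg, jet and Pdf), all were in that table, but none was placed on the lists for the same reason.

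All 3 windows were touched by at least 1 region in all 3 lists. The combined list stands for the same ChIP samples as the replicate lists, so it is not independent of them. Contact in all 3 lists was also found in 62.6% of the same-arm windows for per, 73.4% for tim and 70.6% for Clk, so contact alone sets none of these genes apart. Contact by both replicate lists was found in 62.7%, 73.5% and 70.6% of them. In single lists replicate 1 touched 74% of the same-arm windows for per, replicate 2 touched 66.8% and the combined list touched 82.1%. The same shares were 76.6%, 81% and 84.4% for tim, and 75%, 79.3% and 83.5% for Clk. What differed among the genes was how much of the window was covered, how high the scores ranked, and what lay on either side.

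**Figure D1:**
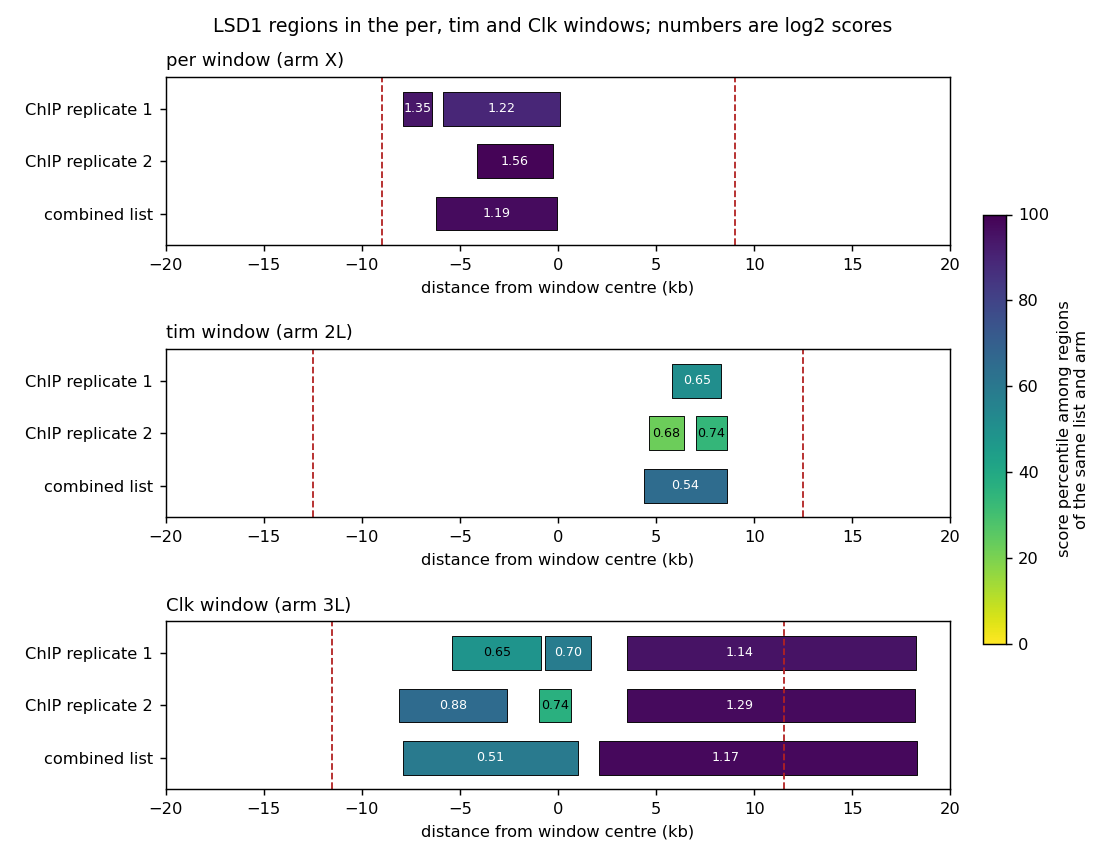
Enriched regions (bars) in the per, tim and Clk windows, by distance from the window centre in kb, in ChIP replicate 1, ChIP replicate 2 and the combined list. Dashed lines are the window ends, numbers are log2 scores, and colour is the score's percentile among regions of the same list and arm. Per holds high-ranked regions that end near its centre, tim holds low to middle-ranked ones at the right, and Clk holds a high-ranked domain that runs past the right end.

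The per gene encodes the repressor PERIOD. Its window had a compact block of LSD1 enrichment with high scores and an empty right part. Replicate 1 listed X:2575119-2576556, of 1438 bp with a score of 1.35, and X:2577152-2583083, of 5932 bp with a score of 1.22. Replicate 2 had the single region X:2578872-2582719, of 3848 bp and score 1.56. In the combined list the block was X:2576770-2582932, of 6163 bp and score 1.19. The replicate 2 region lay wholly inside the wider replicate 1 region, so 3.85 kb was covered in all 3 lists, from 4.87 to 8.72 kb after the window start.

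Scores at per stood near the top of the X chromosome, most of all in replicate 2. There the region ranked 15 of 1605 X regions (percentile 99.1). In replicate 1 the ranks were 101 and 177 of 1655 (percentiles 93.9 and 89.3), and in the combined list 70 of 2250 (96.9). Wide regions tend to score higher, so ranks were also taken within width classes, that is 4 classes of X regions with equal numbers from narrow to wide. The replicate 2 region then ranked 11 of 401, the narrow replicate 1 region 13 of 414, the wide replicate 1 region 107 of 414 (percentile 74.3), and the combined region 55 of 563 (90.3). Thus the narrow replicate 1 region, the replicate 2 region and the combined region were above a percentile of 90 both on X and in their width class. The wide region of replicate 1 was below 90 in both, and further below in its class. The wide replicate 1 region, the replicate 2 region and the combined region overlap, so they are not separate sites. The narrow region was listed in replicate 1 alone, and no region of replicate 2 or the combined list touched it. At the site found in every list, replicate 1 was thus at 89.3 on X and 74.3 in its class.

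Taken over whole windows, the highest score in the per window exceeded that of most X windows. Of 1243 windows, 147 passed it in replicate 1, 16 did so in replicate 2 and 116 in the combined list. Only 920, 830 and 1021 of these windows held a region, and the rest counted as lower. The mean percentile over the replicates was 93.4 ± 7.45 (SD, n = 2). In replicate 1 the highest score was that of the narrow region, which replicate 2 lacked, so this mean joins different sites.

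Coverage at per was less settled than score. Regions covered 40.9% of the window in replicate 1 and 21.4% in replicate 2, or 31.2% ± 13.8 (SD, n = 2), where the average X window had 27.8% and 20.4%. The combined list covered 34.2%, which was below its X average of 36.1%, so per was above the average of its arm in the replicates alone. The percentiles were 72.1 and 63.7 in the replicates and 53.4 in the combined list. The replicates therefore differed by nearly as much as their lower value, and the difference lay mostly on the left. In replicate 1 alone 3.52 kb was covered, and nothing was covered in replicate 2 alone. Shared sequence made up 52.2% of the bases covered in replicate 1 and 100% of those in replicate 2. Along X as a whole these shares were 56.2% and 76.5%. As a share of bases under either list it was 52.2%, and it was 91.1% with 5 kb taken off each window end and 43.5% with 5 kb added. The mean covered share with 5 kb taken off was 48.8%.

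The right part of the per window, from 2583084 to its end, held no region in any list over 8.92 kb. It belongs to a region-free stretch of 14.0 kb, which ranked 233 of 2168 such stretches on X.

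**Figure D2:**
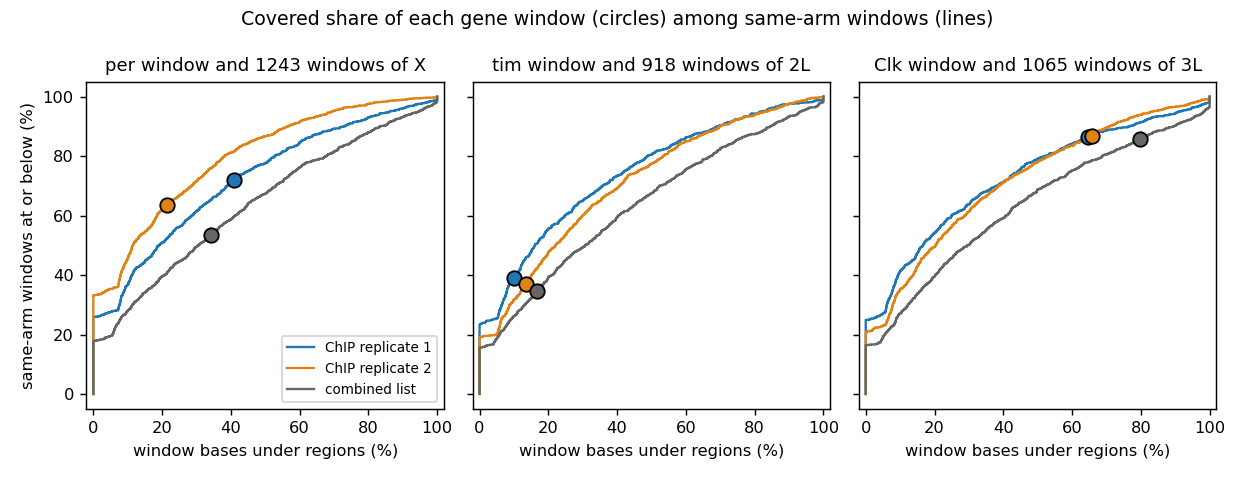
Covered share of the per, tim and Clk windows (circles) on the cumulative curves of same-arm windows (lines), in each list. The horizontal axis is the percent of window bases under regions and the vertical axis the percent of same-arm windows at or below that value. Clk sits at percentiles 85.6 to 86.9 and tim at 34.8 to 39.0, while per spreads between 53.4 and 72.1.

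TIMELESS, the partner of PERIOD, is encoded by tim. Its window was sparsely covered, with low to middle-ranked regions at a single place. Replicate 1 had 2L:3506333-3508810, of 2478 bp and score 0.65. Replicate 2 had 2 narrow regions there, 2L:3505140-3506912 (1773 bp, score 0.68) and 2L:3507529-3509116 (1588 bp, score 0.74), separated by 616 bp. In the combined list 2L:3504894-3509102 spanned both, at 4209 bp and a score of 0.54. Stretches of 580 and 1282 bp were covered in all 3 lists, 1.86 kb in total.

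None of the tim regions ranked high. Among 2L regions the replicate 1 region stood at percentile 50.8, the replicate 2 regions at 22.4 and 33.7, and the combined region at 65.0. Within their width classes on 2L they were at 34.4, 36.4, 60.2 and 21.5. All 3 replicate regions lay under the median score of their whole list, at percentiles 41.7, 21.6 and 31.6, so that restricting the replicate lists to their upper 50% by score left the tim window at 0% in both. The combined region was at percentile 57.4 of its list, above the median. The highest score of the window was passed by 550 of 918 windows of 2L in replicate 1, by 662 in replicate 2 and, for the combined list, by 607. Only 703, 744 and 775 of these windows held a region, and the rest counted as lower.

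Covered share at tim was 9.91% in replicate 1 and 13.4% in replicate 2, or 11.7% ± 2.50 (SD, n = 2), and 16.8% in the combined list. Windows of 2L averaged 25.9%, 28.9% and 36.4%. The ranks were close to each other, at percentiles 39.0, 37.1 and 34.8. In all 3 lists tim was thus below the average and the median of its arm, but inside the range of 2L windows.

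The tim regions of the replicates overlapped in part, with sharing near the 2L level in replicate 1 and below it in replicate 2. Of the covered bases, 75.1% in replicate 1 and 55.4% in replicate 2 were shared, and the 2L-wide shares were 75.0% and 67.2%. The replicate 1 region and the replicate 2 region with the longest overlap ended 306 bp apart and began 1196 bp apart, where the medians over 1197 such pairs on 2L were 809 and 865 bp.

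Around tim, long stretches were free of regions. On the left, no list had a region over 24.6 kb from 3480281 to 3504893, of which 16.9 kb lay inside the window, and only 100 of 2032 region-free stretches on 2L were longer. On the right, after a region of 1701 to 1953 bp that began 882 to 1096 bp beyond the window end, came a stretch of 102.7 kb without a region in any list. This was the 12th longest of the 2032 on 2L. Within 50 kb to the right of the window 3.40%, 3.57% and 3.91% of bases were covered in replicate 1, replicate 2 and the combined list.

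**Figure D3:**
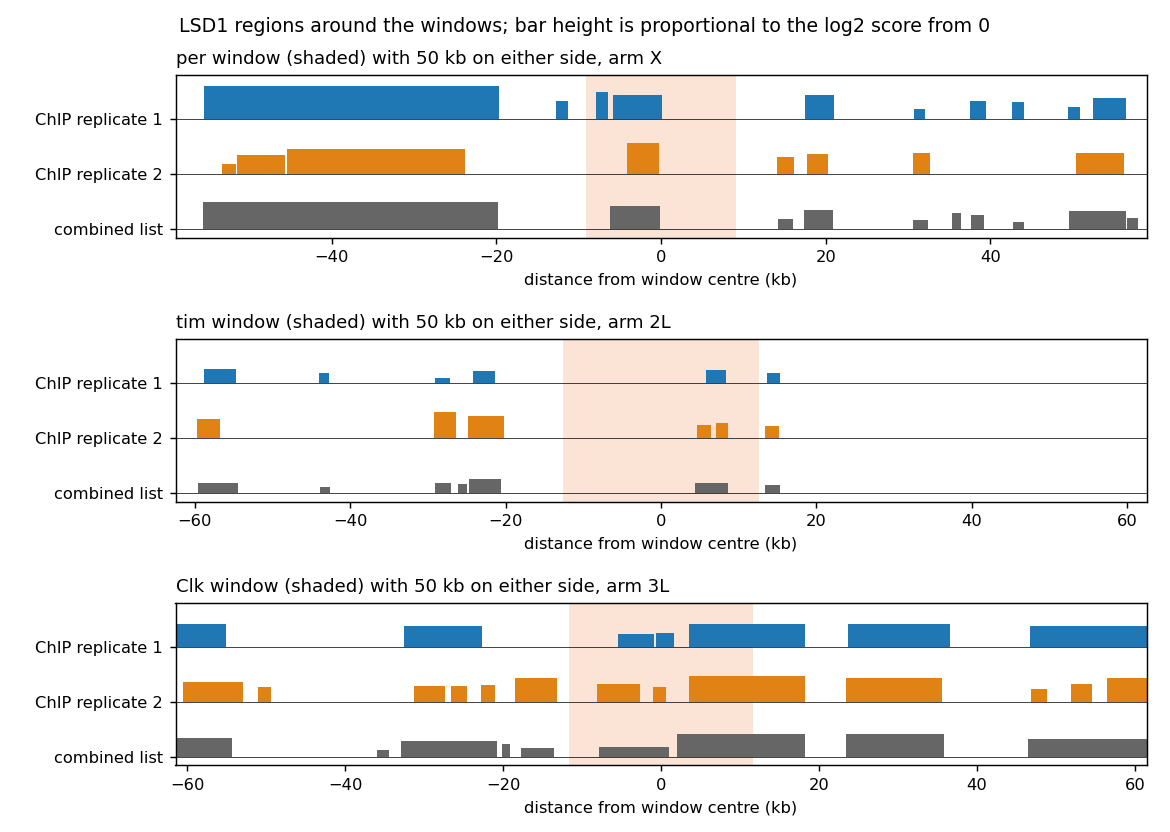
Enriched regions in the windows (shaded) and 50 kb on either side, by distance from the window centre in kb, in each list. Bar height is proportional to the log2 score from 0 and bar width is region width. Broad domains stand left of per and right of Clk, and the right side of tim holds 1 region per list.

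Clk encodes the activator CLOCK. Its window was the most covered of the 3, and it joined middle-ranked regions on the left to the edge of a broad, high-scoring domain on the right. The domain was 3L:7773023-7787735 in replicate 1 (14713 bp, score 1.14), 3L:7772997-7787693 in replicate 2 (14697 bp, score 1.29) and 3L:7771580-7787784 in the combined list (16205 bp, score 1.17). It began 15.0 kb after the window start in both replicates and ran 6735 bp past the window end in replicate 1 and 6693 bp in replicate 2, so that 54.2% and 54.5% of it was inside.

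The 2 replicates placed this domain almost identically. Its starts were 26 bp apart and its ends 42 bp apart. Medians for overlapping pairs on 3L were 859 and 884 bp, and of 1193 pairs 14 had closer ends in sum. By score the domain ranked 72 of 1525 in replicate 1, 54 of 2002 in replicate 2 and 43 of 2070 in the combined list (percentiles 95.3, 97.3 and 97.9). Within the widest class of 3L regions the percentiles were 87.3, 91.1 and 95.1. By width it ranked 76, 39 and 91 among the same regions.

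Left of the domain lay regions with lower scores. Replicate 1 had 3L:7764096-7768649 (4554 bp, score 0.65) and 3L:7768830-7771175 (2346 bp, score 0.70). Replicate 2 had 3L:7761396-7766894 (5499 bp, score 0.88) and 3L:7768543-7770148 (1606 bp, score 0.74). The combined list had 3L:7761584-7770508 (8925 bp, score 0.51). On 3L the replicate 1 pair had score percentiles of 48.2 and 58.5, the replicate 2 pair 65.6 and 36.5, and the combined region 59.1. In its width class the wider left region stood at 10.6 (replicate 1), 28.4 (replicate 2) and 13.2 (combined), and the narrower one at 49.2 (replicate 1) and 63.1 (replicate 2). For the wider regions of the replicates, starts were 2700 bp and ends 1755 bp apart, both more than the medians of the arm. For the narrower ones, starts were 287 bp apart, less than the median, and ends 1027 bp, more than it.

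Coverage of the Clk window as given was nearly equal in the replicates, at 64.7% and 65.7%, or 65.2% ± 0.710 (SD, n = 2). That closeness depended on where the window ends fell. With 5 kb taken off each end the replicates had 76.0% and 65.4%, and with 5 kb added 60.2% and 70.9%. Inside the window as given, 2675 bp was covered in replicate 1 alone and 2906 bp in replicate 2 alone. The combined list covered 79.8%. Windows of 3L averaged 27.2%, 28.2% and 36.8%. In the 3 lists 146, 140 and 153 of 1065 windows had more covered bases, which gives percentiles of 86.3, 86.9 and 85.6. Shared bases made up 82.0% of the covered bases of replicate 1 and 80.8% of those of replicate 2, where 3L as a whole had 73.0% and 70.4%. The domain inside the window accounts for 7.98 of the 12.2 kb covered in all lists. With regions limited to the upper 25% by score, it alone remained and 34.7% of the window was covered. The highest score of the window was passed by 109, 75 and 66 of the 1065 windows in replicate 1, replicate 2 and the combined list. Only 799, 845 and 889 of these windows held a region, and the rest counted as lower. The mean percentile was 91.4 ± 2.26 over the replicates (SD, n = 2).

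**Figure D4:**
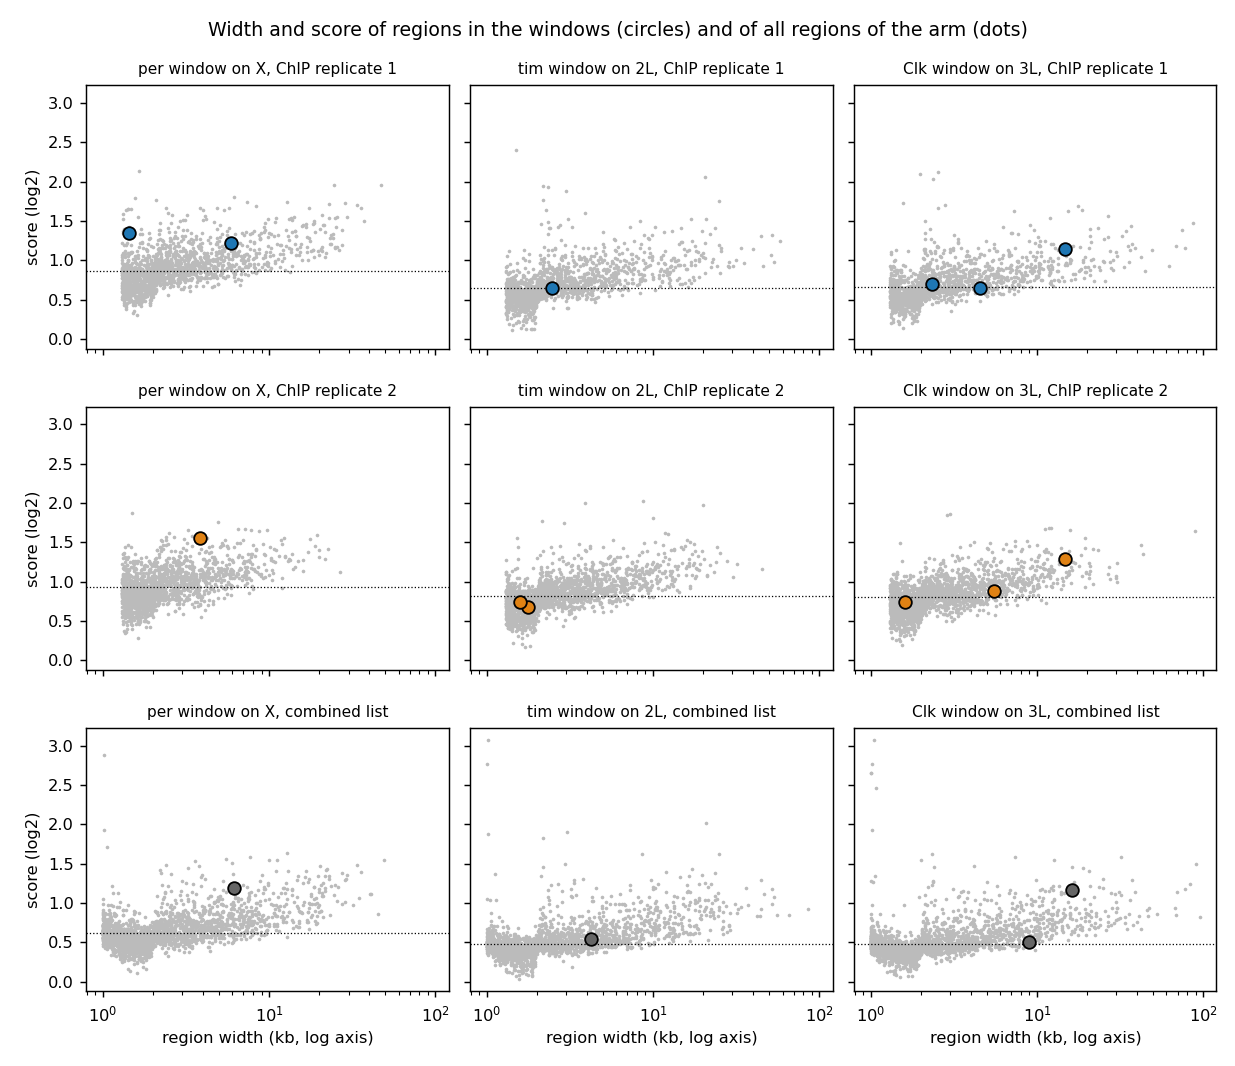
Width (kb, log axis) and score (log2) of the regions in the per, tim and Clk windows (circles) and of all regions of the same arm and list (dots), with the median score of the arm as a dotted line. The per regions and the Clk domain lie above the median in every list, and the tim regions lie below it in replicate 2 and slightly above it in replicate 1 and the combined list.

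Among the 3 genes, covered share went from Clk (65.2%) through per (31.2%) to tim (11.7%) in the replicate means, and in the windows as given each pair of genes had replicate values that did not overlap. With 5 kb added to each window end, per had 31.6% in replicate 1 and 13.7% in replicate 2 and tim had 11.9% and 14.7%, so that these 2 genes overlapped and replicate 2 gave the opposite order. For the highest score, per had percentiles on its own arm of 88.2 (replicate 1), 98.7 (replicate 2) and 90.7 (combined). Clk had 89.8, 93.0 and 93.8, and tim had 40.1, 27.9 and 33.9. Thus, by rank on its own arm, tim was below per and Clk in each list, and per was above Clk in replicate 2 alone. Score levels differed among the arms, with replicate 1 medians of 0.86 on X, 0.65 on 2L and 0.66 on 3L. Among all regions of a list, the top per region was at 96.9 (replicate 1), 99.4 (replicate 2) and 97.7 (combined). The Clk domain was at 92.5, 95.8 and 97.4, and the top tim region at 41.7, 31.6 and 57.4. By that rank per was above Clk in each list. With 2 lists per gene, no test of these differences was run, and the windows differ in size.

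The surroundings of per and Clk held broad domains. Flank coverage was not ranked among stretches of the same arm, so how common such surroundings are was not tested. Within 50 kb to the left of per, 74.8% of bases were covered in replicate 1, with 58.5% in replicate 2 and 71.5% in the combined list. Most of this was X:2527412-2563308 in replicate 1, a domain of 35.9 kb with a score of 1.66. Replicate 2 had 3 regions in its place, the longest of 21.6 kb with a score of 1.29. The domain ended 10.7 kb before the per window in replicate 1 and 14.8 kb before it in replicate 2, and in the combined list 10.9 kb before it. To the right of per 27.6%, 24.8% and 39.2% of bases were covered.

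Right of Clk, 68.7%, 57.1% and 68.7% of the 50 kb was covered. After the domain that enters the window came the next one, 3L:7793233-7806076 in replicate 1 (12.8 kb, score 1.16) and 3L:7792881-7805063 in replicate 2 (12.2 kb, score 1.20), and then another of 42.3 kb in replicate 1, where replicate 2 had 3 regions within the 50 kb, the longest of 20.9 kb. To the left 32.5%, 44.6% and 52.6% was covered, by 2 regions of replicate 1, 6 of replicate 2 and 5 of the combined list.

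By the order of protein-coding genes in the release 6 table, per lies between CG2652 and dyw, with HLH3B and Spg7 next on either side. The gene beyond HLH3B is sgg, which encodes the GSK-3 kinase that phosphorylates TIMELESS. Between CG15414 and CG31954 lies tim, with Thor, which encodes the translation inhibitor 4E-BP, and LeuRS, a leucyl-tRNA synthetase gene, one place further out. Clk lies between Hn, the phenylalanine hydroxylase gene, and CG32369, and the gene after CG32369 is Pdp1, which encodes an activator of Clk in the clock's other loop. A further gene, CG32371, lies within the bounds of Clk in that table. The neighbouring domains could not be assigned to sgg, CG32369 or Pdp1, because the table and the lists follow different releases.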

How the data were processed

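LSD1 ChIP-seq of fly heads was deposited as 3 region lists: 1 for each of 2 ChIP samples, each against the input of the same number per the labels, and 1 combined list. Bowtie 0.12.7 is named in the submitters' processing notes, and the file headers give FlyBase release 5. The sources used here name no caller, threshold, read depth or way of combining. Thus no interval that needs depth is given, and replicates, which no label ties to separate collections, may show technical spread only. Positions were used as deposited. The deposited score was read as log2: relative to the most frequent score of its list, 2 to the score difference gave whole-number ratios in 98.3% of replicate 1, 99.9% of replicate 2 and 96.0% of combined regions (relative tolerance 1e-12, denominators up to 6000). Entries typed as depletion (3, none in the windows) were left out. Overlap meant at least 1 bp. Same-arm windows started at the first base of the arm, and those touching the gene window were left out. Python 3.11.15 and numpy 2.4.6 were used, and the window functions were tested on simulated regions. Every region touching a window is named, and up to 2 neighbouring genes per side. Also named are sgg, a listed clock gene, and CG32371, within the bounds of Clk. The members, windows and gene list were chosen with earlier results of these data known. Alternatives changed window size, score threshold, list and window grid. No genome sequence was used, so no sequence is printed.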

Additional observations from a re-analysis of the deposited data

How the results depend on the processing

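Of 118 alternatives, 78 were counted as the same. That meant within 1 SD of the replicates, within 1.5 times for counts of regions, and unchanged for shared sequence. Of the 13 for sequence shared between the replicates, 11 were labelled as moved. For shares of bases, any change in value sufficed. At per the share was 91.1% with 5 kb taken off each window end and 43.5% with 5 kb added, against 52.2% as given. The 11 include, for each gene, a share of regions and not of bases, which was labelled as moved in advance without comparing values. It counts replicate 1 regions with 50% or more of their bases shared, and was 50% at per and 100% at tim and Clk. Being another quantity, it cannot show whether shared bases moved. Coverage at per lay below the X average in the combined list, and with 5 kb added it lay below tim in replicate 2. No paired analysis was possible because no result comes from a test and the input samples have no list of their own. The cause of the changes below was not tested, except that stricter scores and the trimmed or widened windows remove or add bases by construction. With 5 kb taken off each window end, covered share was 48.8% at per and 70.7% at Clk; its percentile was 79.1 at per, 43.4 at tim and 85.4 at Clk, and that of the highest score at tim was 45.0. With 5 kb added, the coverage percentile was 56.2 at per and 88.5 at Clk. Score limits were applied to the replicate lists only. With the upper 50%, covered share was 0% at tim and 51.8% at Clk, the coverage percentile was 19.96 at tim and 87.3 at Clk, and the highest-score percentile at tim was 19.96. With the upper 25%, covered share was 0% at tim and 34.7% at Clk, and the coverage percentile was 80.5 at per, 31.2 at tim and 87.0 at Clk. In the combined list, covered share was 16.8% at tim and 79.8% at Clk, the coverage percentile was 53.4 at per, 34.8 at tim and 85.6 at Clk, and the highest-score percentile at Clk was 93.8. Without the first and last 1 Mb of the arm, the coverage percentile at tim was 36.2. Where a gene has no region in the upper lists, its percentile is that of all windows without one. Leaving out either replicate moved no coverage or rank by more than 1 SD, which with n = 2 holds by construction. These alternatives are among the 78, so that count does not measure stability. Read depth is unknown, so a region missing from a list does not show that LSD1 was absent.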
